A study of Rattus norvegicus with 8 samples.

Results

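The genes described here are 39 genes of glycolysis and of the transcriptional response to low oxygen, measured in whole lungs of newborn rats. They were chosen by name from general knowledge of these pathways, with earlier results of these data known. The shares below are therefore not those of a list picked blind to the data. Each gene was found as a row with exactly 1 gene symbol among 22093 such genes on the array. The set holds 17 glycolytic enzymes and 22 other targets. The other targets are 3 regulators of glycolytic flux, 4 glucose and lactate transporters and 15 further hypoxia targets. All 39 passed the level filter that left 15465 genes for the test.

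Glycolysis splits glucose into pyruvate in the cytosol and yields ATP without oxygen, and lactate dehydrogenase then turns pyruvate into lactate. Hypoxia-inducible factors (HIFs) are transcription factors whose alpha subunits are hydroxylated and degraded while oxygen is present. When oxygen falls they pair with ARNT and bind DNA with the core letters ACGTG or GCGTG near genes for glucose uptake, glycolysis, pH control, blood vessel growth and mitochondrial turnover. The lung develops in a low-oxygen uterus and meets air at birth, so these genes are of interest on the first day of life.

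The study compared 4 lungs from pups of dams on a diet with 1000 IU/kg vitamin D (titled adequate) with 4 lungs from pups of dams on 0 IU/kg (titled deficient). Dams arrived at 4 weeks of age and had their serum tested at 8 weeks, and those on the vitamin D-free diet were mated once serum 25-hydroxyvitamin D was below 10 ng/ml. Both diets had 0.5% calcium and 0.4% phosphorus. Both groups were housed without ultraviolet light in room air at 1600 m, where the barometric pressure is 630 mmHg and the inspired oxygen pressure 122 mmHg, so the titled adequate pups are no sea-level control. The sires were vitamin D replete. The labelled age is day 0, while the growth protocol puts the harvest at day of life 1. Each array held the total RNA of 1 whole lung. Since littermates are not marked in the labels, a p-value here covers the variation among these 8 lungs alone.

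The direction of every difference below rests on the sample titles, and the deposited material disagrees on it. A comparison table, also deposited by the authors, has 8 columns named for the groups, and each holds the values of the same-numbered array of the opposite group by title. Groups are therefore called titled adequate and titled deficient throughout. All 15 markers of lung epithelium passed the level filter, with mean log2 signals per array of 13.82 to 14.42. Several other measures moved with the titled groups. The sex of the pups is not labelled, and the Y-linked gene Ddx3y read 13.45, 13.43, 8.71 and 7.40 (log2) on titled adequate 1 to 4, and 5.71 to 5.90 on titled deficient arrays. Titled deficient 4 stood apart in quality: positive controls separated from negative controls with an area under the curve of 0.755, against 0.783 to 0.795 on the other 7 arrays. In bulk tissue, fewer cells of a type and less RNA per cell cannot be told apart.

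Of the 39 genes, 20 were higher in the titled adequate lungs and 0 were higher in the titled deficient lungs (limma, adjusted p below 0.05 over all genes tested). This is 51.3% of the set, against 13.7% of all genes tested in that direction and 8.24% in the other. The median log2 difference, titled adequate minus titled deficient, was 0.43 over the 39 genes and 0.02 over all genes. The difference was above 0 for 36 of the 39, against 52.8% of all genes. The 4 titled adequate arrays all lay above the 4 titled deficient arrays for 22 of the 39, against 16.7% of all genes, and for 0 of the 39 the order was the opposite, against 11.3%. Of the 3390 calls among all genes, 62.4% were higher in the titled adequate lungs, and that share was 75.8% after cyclic loess and 80.2% after median centring of the arrays. With all transcript clusters in the fit, named or not and with no level filter, it was 39.1%. Differences reached at least 2-fold with an adjusted p below 0.05 for 8 members, against 1.74% of all genes tested in that direction and 0.356% in the other, and all 8 were among the other targets.

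**Figure D1:**
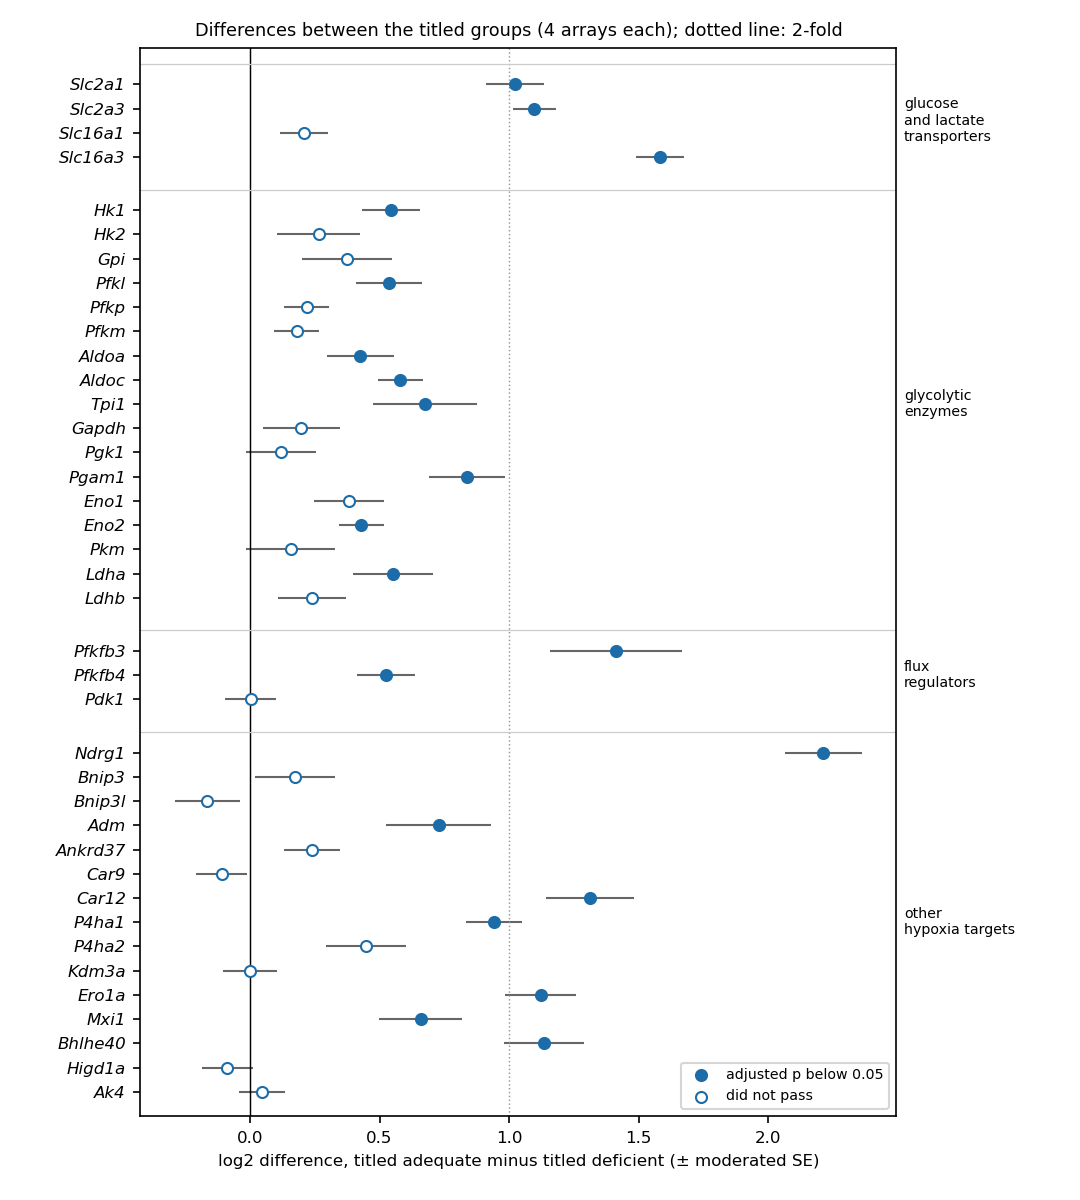
Log2 difference (titled adequate minus titled deficient, horizontal axis) of each of the 39 genes, grouped by role, with the moderated standard error as a bar and 4 arrays per group. Filled circles passed adjusted p 0.05 and open circles did not. The dotted line is a 2-fold difference, and the 8 genes past it are Slc2a1, Slc2a3, Slc16a3, Pfkfb3, Ndrg1, Car12, Ero1a and Bhlhe40.

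The stretches of 250 bases upstream of the gene starts (RefSeq, GRCr8) were available for 34 of the 39 genes, and show where the HIF core letters stand. Pgk1, Slc2a3, Ndrg1, Bnip3l and Ero1a had none in the table. Where a gene had several windows, as 3251 genes did, only the first listed was used, and other starts were not searched. A few windows are printed: 3 of genes that passed with a core (Ldha, Slc2a1, Bhlhe40), 1 of a gene that passed without one (Slc16a3) and 1 of a gene that did not pass with several cores (Bnip3). They run 5′ to 3′ on the gene's strand, and capitals mark ACGTG, and likewise GCGTG, on either strand.
Ldha, chr1:106507842-106508091, plus strand: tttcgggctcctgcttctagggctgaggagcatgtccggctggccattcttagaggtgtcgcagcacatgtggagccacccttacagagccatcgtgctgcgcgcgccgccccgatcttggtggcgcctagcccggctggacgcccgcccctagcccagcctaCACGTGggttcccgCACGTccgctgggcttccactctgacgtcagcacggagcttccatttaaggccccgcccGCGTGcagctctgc
Slc2a1, chr5:138002272-138002521, plus strand: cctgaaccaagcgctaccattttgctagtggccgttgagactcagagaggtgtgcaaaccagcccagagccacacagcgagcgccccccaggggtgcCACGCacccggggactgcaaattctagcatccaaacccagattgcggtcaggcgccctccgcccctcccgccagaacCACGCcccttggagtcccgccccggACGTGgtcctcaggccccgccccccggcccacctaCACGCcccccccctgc
Bhlhe40, chr4:143174200-143174449, plus strand: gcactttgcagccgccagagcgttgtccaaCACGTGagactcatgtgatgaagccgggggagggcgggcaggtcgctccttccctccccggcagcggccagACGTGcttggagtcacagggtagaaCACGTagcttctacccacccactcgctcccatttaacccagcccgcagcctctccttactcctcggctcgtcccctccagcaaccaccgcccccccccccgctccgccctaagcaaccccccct
Slc16a3, chr10:106712078-106712327, plus strand: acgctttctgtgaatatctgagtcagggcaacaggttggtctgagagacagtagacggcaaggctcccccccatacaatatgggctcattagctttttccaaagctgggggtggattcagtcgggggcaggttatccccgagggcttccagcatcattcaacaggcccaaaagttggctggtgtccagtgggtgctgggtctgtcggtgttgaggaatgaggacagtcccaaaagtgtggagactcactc
Bnip3, chr1:203154963-203155212, minus strand: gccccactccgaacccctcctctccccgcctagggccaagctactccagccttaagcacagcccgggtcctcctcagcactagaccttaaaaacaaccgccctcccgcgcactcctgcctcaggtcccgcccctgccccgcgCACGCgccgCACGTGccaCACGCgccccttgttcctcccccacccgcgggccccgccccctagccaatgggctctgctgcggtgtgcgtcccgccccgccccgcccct

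At least 1 core on either strand was found in 22 of the 34 windows (64.7%), against 37.9% of all 27457 promoters and 50.8% of the 12092 promoters of genes tested here. The windows of these genes were also richer in G and C, with a median of 63.6% against 58.4% for the genes tested and 52.0% for all promoters, and no match for base composition was made. A core stood in 10 of 17 windows of genes that were higher in the titled adequate lungs (58.8%) and in 12 of 17 windows of genes that did not pass (70.6%). Among glycolytic enzymes it stood in 10 of 16 windows, and among the other targets in 12 of 18. The letters ACGTG alone were in 44.1% of the members' windows and 20.6% of those of the genes tested. In 6 windows stood the palindrome CACGTG, in which ACGTG is read on both strands and counts at 2 overlapping positions. A match describes these letters only, and its absence from a window of this length says nothing of binding elsewhere.

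Among the 4 transporters, 3 were higher in the titled adequate lungs, each with no overlap between the groups. Slc16a3 encodes MCT4, which exports lactate. Its log2 signals were 7.75, 8.15, 8.06 and 8.07 on titled adequate 1 to 4 and 6.43, 6.41, 6.43 and 6.43 on titled deficient 1 to 4. The titled deficient arrays were nearly identical (SD 0.01), and the difference was 3.00-fold (log2 1.58, SE 0.09, adjusted p = 1.6e-05). Slc2a1, the glucose transporter GLUT1, read 12.12, 12.05, 12.44 and 12.19 against 11.29, 11.20, 11.20 and 11.01. That is 2.03-fold (log2 1.02, SE 0.11, adjusted p = 0.000521). Slc2a3, the high-affinity glucose transporter GLUT3, read 7.83, 7.83, 7.95 and 7.86 against 6.94, 6.75, 6.76 and 6.62, which is 2.14-fold (log2 1.10, SE 0.08, adjusted p = 7.5e-05). A further probe row of Slc2a3 gave a log2 difference of 0.85. For Slc16a3 and Slc2a3 the titled deficient mean lay below the lowest median of the negative control probes on any array, a log2 signal of 6.82. Other references were lower: the antigenomic background controls had means of 3.71 to 3.92 per array, and all transcript clusters had medians of 5.50 to 5.65. Whether the signals of these 2 genes there were at a floor was not tested. Slc16a1 (MCT1), which carries lactate and ketone bodies, differed by 0.21 (SE 0.09, adjusted p = 0.13), and its groups overlapped.

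Of the 17 glycolytic enzymes, 8 were higher in the titled adequate lungs (47.1%) and 0 were higher in the titled deficient lungs. All 17 differences were above 0, with a median of 0.38 (1.30-fold) and a range of 0.12 to 0.84, and none reached 2-fold. The steps that passed were spread over the pathway and included hexokinase, phosphofructokinase, aldolase, triose phosphate isomerase, phosphoglycerate mutase, enolase and lactate dehydrogenase. At several of these steps 1 isoform passed while another did not. No difference between isoforms was tested.

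Hexokinase traps glucose in the cell as its phosphate. Hk1, the widely expressed isoform, read 9.95, 9.80, 9.96 and 9.97 on titled adequate 1 to 4 and 9.54, 9.47, 9.43 and 9.08 on titled deficient 1 to 4. It was 1.46-fold higher in the titled adequate lungs (log2 0.54, SE 0.11, adjusted p = 0.00997). Hk2, the insulin- and hypoxia-responsive isoform, read 7.76, 7.78, 8.41 and 8.29 against 7.92, 7.94, 7.70 and 7.62. Titled adequate 3 and 4 were the highest of the 8 and titled adequate 1 and 2 lay inside the titled deficient range, with a difference of 0.27 (SE 0.16, adjusted p = 0.254). Gpi, the isomerase that makes fructose 6-phosphate, differed by 0.37 (SE 0.17, adjusted p = 0.147), and its groups overlapped.

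Phosphofructokinase catalyses the committed step and has 3 subunit genes. Pfkl, named for liver, read 10.95, 10.81, 10.72 and 10.74 against 10.48, 10.38, 10.30 and 9.92. Every titled adequate lung was above every titled deficient lung, and the difference was 1.45-fold (log2 0.54, SE 0.13, adjusted p = 0.0178). Pfkp, named for platelets, differed by 0.22 (SE 0.09, adjusted p = 0.102), and Pfkm, named for muscle, by 0.18 (SE 0.09, adjusted p = 0.154). Aldolase then cleaves the sugar into triose phosphates. Aldoc read 7.68, 7.62, 7.65 and 7.71 against 7.25, 7.07, 7.12 and 6.90, a tight pair of groups that differed 1.49-fold (log2 0.58, SE 0.09, adjusted p = 0.00244). Aldoa, the muscle-type aldolase, read 8.93, 9.03, 8.91 and 8.99 against 8.71, 8.61, 8.69 and 8.13. Its groups did not overlap (log2 0.43, SE 0.13, 1.34-fold, adjusted p = 0.0428), and titled deficient 4 was far below the others of its group. Without that array the Aldoa difference was 0.29, adjusted p = 0.0281. The Aldoa call was lost without any one titled adequate array, titled deficient 2 or titled deficient 3 (adjusted p up to 0.0907).

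In the lower pathway, Pgam1 and Tpi1 differed most. Pgam1, the phosphoglycerate mutase of most tissues, read 11.89, 11.80, 12.01 and 12.10 against 10.96, 11.41, 11.30 and 10.79. That is 1.79-fold (log2 0.84, SE 0.15, adjusted p = 0.00487). A dimmer second row annotated as Pgam1 gave a difference of 0.05 (adjusted p = 0.772). Its identifier names chromosome 2, while Pgam1 and its first row are on chromosome 1. Whether the second row measures Pgam1 transcripts was not tested. Tpi1, the triose phosphate isomerase, read 11.72, 11.68, 11.35 and 11.69 against 11.19, 11.16, 11.12 and 10.28. The groups did not overlap (1.60-fold, log2 0.67, SE 0.20, adjusted p = 0.0394), and without titled deficient 4 the difference was 0.45, adjusted p = 0.0217. The Tpi1 call was lost without any one of titled adequate 1, 2 and 4 or titled deficient 2 and 3 (adjusted p up to 0.0853). A second Tpi1 row differed by 0.68. Mammalian genomes carry pseudogene copies of several of these enzymes, Gapdh among them, and the probes' ability to separate the copies was not tested.

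Eno2, the enolase of neurons and neuroendocrine cells, was higher in the titled adequate lungs, at 7.68, 7.77, 7.50 and 7.49 against 7.16, 7.09, 7.24 and 7.24. The difference was 1.35-fold (log2 0.43, SE 0.09, adjusted p = 0.00949), and a second Eno2 row gave 0.88. Of the neuron and neuroendocrine markers, Chga, Syp, Uchl1, Resp18 and Scg2 were below the level filter, 1 of the 4 tested was higher and 1 lower in the titled adequate lungs, and the list's mean log2 signal was 5.30 to 5.43 on titled adequate and 5.40 to 5.47 on titled deficient arrays. Eno1, the general enolase, read 9.88, 9.93, 10.07 and 10.12 against 9.88, 9.69, 9.66 and 9.25. Its groups barely separated, and the difference of 0.38 (SE 0.13) did not pass, with an adjusted p of 0.0689. Ldha, the lactate dehydrogenase subunit linked to lactate production, read 11.97, 12.22, 12.38 and 12.19 against 11.91, 11.83, 11.56 and 11.26. Its groups did not overlap and lay close at titled adequate 1 and titled deficient 1. It was 1.47-fold higher in the titled adequate lungs (log2 0.55, SE 0.15, adjusted p = 0.0309), a call lost without any one of titled adequate 2, 3 and 4 or titled deficient 3, while Ldhb, the heart-type subunit, differed by 0.24 (SE 0.13, adjusted p = 0.208).

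Gapdh, Pkm and Pgk1, enzymes that are often used as reference genes or pathway landmarks did not pass. Gapdh, which couples triose phosphate oxidation to NADH formation, read 16.01, 15.98, 16.01 and 16.21 against 16.14, 15.88, 15.98 and 15.41. Pkm, the pyruvate kinase of most tissues, read 11.15, 11.11, 11.28 and 11.37 against 11.31, 11.08, 11.35 and 10.54. For both genes titled deficient 4 was the lowest of the 8 arrays and the other 7 intermingled. The Gapdh difference of 0.20 (SE 0.15, adjusted p = 0.361) became 0.05 without that array, and the Pkm difference of 0.16 (SE 0.17, adjusted p = 0.534) became -0.02. Pgk1, the phosphoglycerate kinase encoded on the X chromosome, differed by 0.12 (SE 0.14, adjusted p = 0.551), and its groups overlapped.

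Of the 3 flux regulators, 2 were higher in the titled adequate lungs. Pfkfb3 and Pfkfb4 make or remove fructose 2,6-bisphosphate, the activator of phosphofructokinase. Pfkfb3 read 12.07, 11.28, 12.50 and 12.42 against 10.70, 11.01, 10.44 and 10.46. The difference was 2.66-fold (log2 1.41, SE 0.25, adjusted p = 0.00543), and titled adequate 2 lay much nearer to the titled deficient lungs than the other titled adequate lungs did. Pfkfb4 read 8.19, 8.11, 7.87 and 8.05 against 7.56, 7.66, 7.63 and 7.26, which is 1.44-fold (log2 0.53, SE 0.11, adjusted p = 0.0111). Pdk1, the kinase that switches off pyruvate dehydrogenase, read 8.59, 8.65, 8.85 and 8.52 against 8.63, 8.70, 8.51 and 8.76. Its groups intermingled, with a difference of 0.00 (SE 0.10, adjusted p = 0.987).

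Of the 15 further hypoxia targets, 7 were higher in the titled adequate lungs. Ndrg1, a cytoplasmic protein induced by hypoxia and other stress, differed most of the 39 genes. It read 13.37, 13.35, 12.81 and 13.08 against 11.14, 10.89, 11.03 and 10.70. The gap between the groups was many times their spread, at 4.64-fold (log2 2.21, SE 0.15, adjusted p = 3.9e-05). Car12, a membrane carbonic anhydrase, read 9.34, 9.16, 8.92 and 9.05 against 7.54, 7.75, 7.61 and 8.32, a 2.49-fold difference (log2 1.31, SE 0.17, adjusted p = 0.00132). Titled deficient 4 was the highest of its group for Car12, and without it the difference was 2.80-fold.

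Enzymes of the endoplasmic reticulum were among those that passed. P4ha1 is a catalytic subunit of the prolyl 4-hydroxylase that matures collagen. It read 14.01, 14.06, 14.07 and 13.96 against 13.17, 13.17, 12.81 and 13.18, a 1.92-fold difference (log2 0.94, SE 0.11, adjusted p = 0.000713). Its paralogue P4ha2 read 8.88, 9.09, 8.48 and 8.40 against 8.09, 8.35, 8.27 and 8.35. The P4ha2 groups did not overlap, but the difference of 0.45 (SE 0.15) did not pass, with an adjusted p of 0.0625. Ero1a, the oxidase that drives disulphide bond formation, read 11.54, 11.98, 12.11 and 11.64 against 10.67, 10.84, 10.63 and 10.65. The titled deficient lungs were close together, and the difference was 2.18-fold (log2 1.12, SE 0.14, adjusted p = 0.000967).

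The transcriptional repressors Bhlhe40 and Mxi1 were also higher in the titled adequate lungs. Bhlhe40, which also acts in the circadian clock, read 11.90, 11.84, 12.44 and 11.99 against 11.09, 10.91, 10.999 and 10.62, which is 2.20-fold (log2 1.14, SE 0.15, adjusted p = 0.00163). Mxi1, an antagonist of MYC, read 10.27, 10.03, 9.61 and 9.53 against 9.19, 9.22, 9.07 and 9.32. Its groups did not overlap and titled adequate 1 and 2 were the highest, with a difference of 1.58-fold (log2 0.66, SE 0.16, adjusted p = 0.0184). Adm, the vasodilator peptide adrenomedullin, read 7.82, 8.68, 7.72 and 7.83 against 7.23, 7.07, 7.27 and 7.56. Titled adequate 2 stood well above every other lung, and the difference was 1.66-fold (log2 0.73, SE 0.20, adjusted p = 0.0317). The Adm call was lost without any one of titled deficient 1, 2 and 3 (adjusted p up to 0.0835), and the Mxi1 call without titled deficient 3 (adjusted p = 0.0503).

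The mitophagy receptors and several commonly used hypoxia markers did not pass. Bnip3 read 11.51, 11.46, 11.30 and 11.07 against 11.04, 11.09, 10.94 and 11.57, where titled deficient 4 was the highest of all 8 arrays. The Bnip3 difference was 0.17 (SE 0.15, adjusted p = 0.441) and, without that array, 0.31 (adjusted p = 0.0939). Bnip3l, its relative in red cell and mitochondrial turnover, read 12.49, 12.48, 12.52 and 12.37 against 12.42, 12.68, 12.46 and 12.95, again highest on titled deficient 4 (difference -0.16, SE 0.13, adjusted p = 0.365). The histone demethylase Kdm3a differed by 0.00 (SE 0.10, adjusted p = 0.999), and its groups overlapped. Car9, Higd1a, Ankrd37 and Ak4 differed by -0.11, -0.09, 0.24 and 0.05, and in both groups their means lay below the lowest negative control median of 6.82. The antigenomic background means were lower, at 3.71 to 3.92 per array. Whether the signals of these 4 genes rose above background was not tested.

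**Figure D2:**
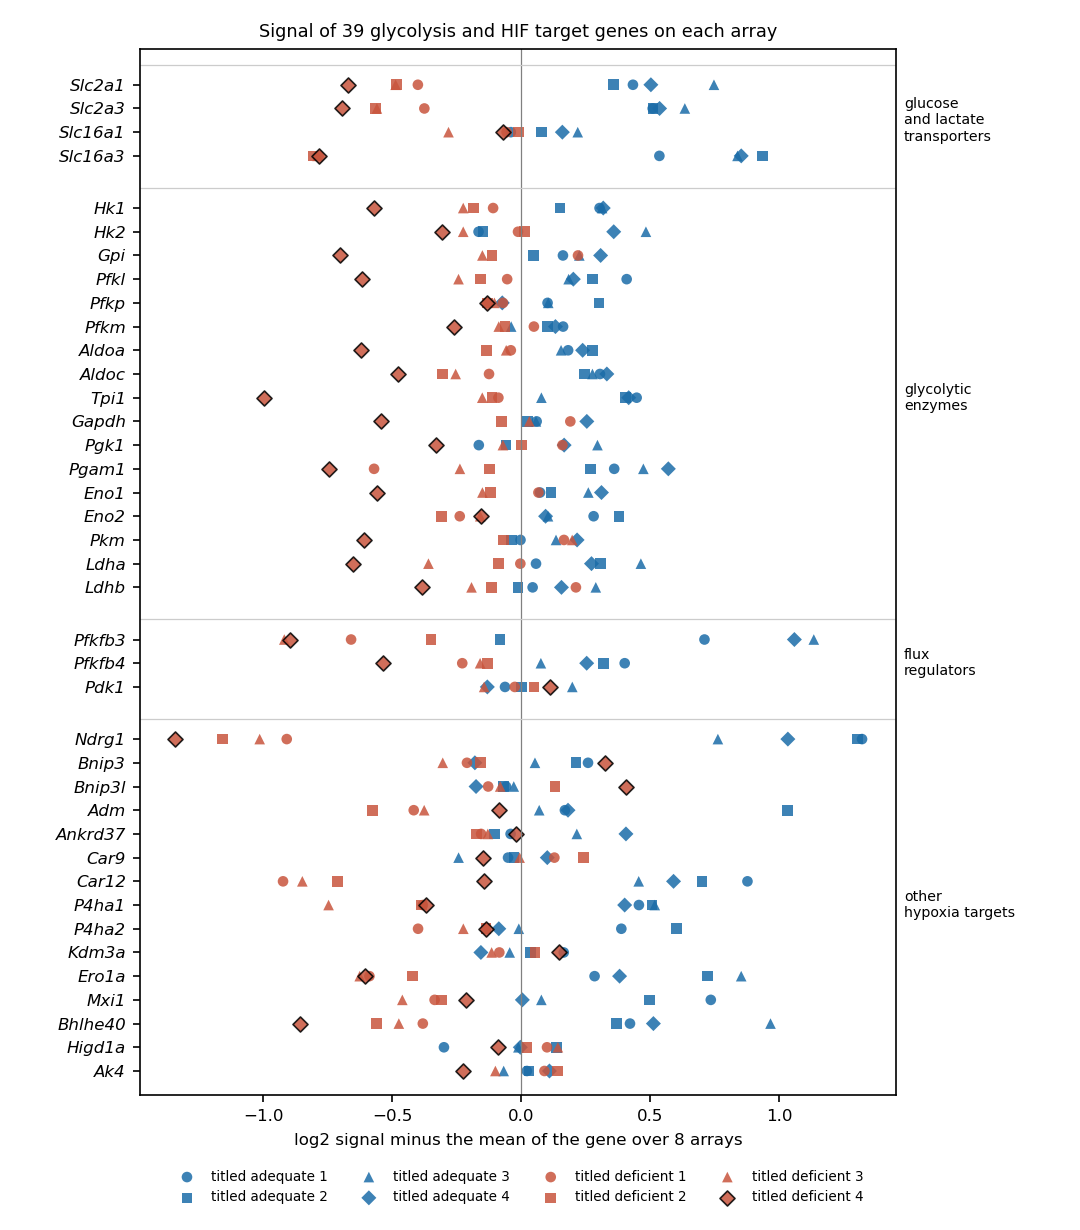
Log2 signal of each of the 39 genes on each of the 8 arrays as a deviation from that gene's mean, with the groups by title and the genes ordered by role. Ndrg1, Slc16a3, Pfkfb3 and Car12 have the largest differences between group means, and 16 of the 17 glycolytic enzymes, all but Eno2, are lowest on titled deficient 4.

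The glycolytic enzymes and the other targets were set side by side by counts and medians. Passing were 8 of 17 enzymes (47.1%) and 12 of 22 other targets (54.5%). The median difference was 0.38 (1.30-fold) for the enzymes and 0.59 (1.51-fold) for the other targets. The other targets also varied more among themselves, from -0.16 (Bnip3l) to 2.21 (Ndrg1). The difference between the 2 sets was not tested.

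The enzymes and the other targets ordered the arrays in different ways. The median deviation from each gene's mean over the 8 arrays, taken over the 17 enzymes, was 0.16, 0.15, 0.23 and 0.25 on titled adequate 1 to 4 and -0.01, -0.12, -0.15 and -0.56 on titled deficient 1 to 4. Over the 22 other targets it was 0.34, 0.34, 0.21 and 0.22 against -0.36, -0.24, -0.34 and -0.18. For the enzymes titled deficient 1 to 3, at -0.01 to -0.15, lay below every titled adequate lung, and titled deficient 4 lay far below them. The mean over the 8 arrays that sets 0 includes titled deficient 4. For the other targets the 4 titled deficient lungs lay together, and titled deficient 4 was the nearest of them to the titled adequate lungs.

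**Figure D3:**
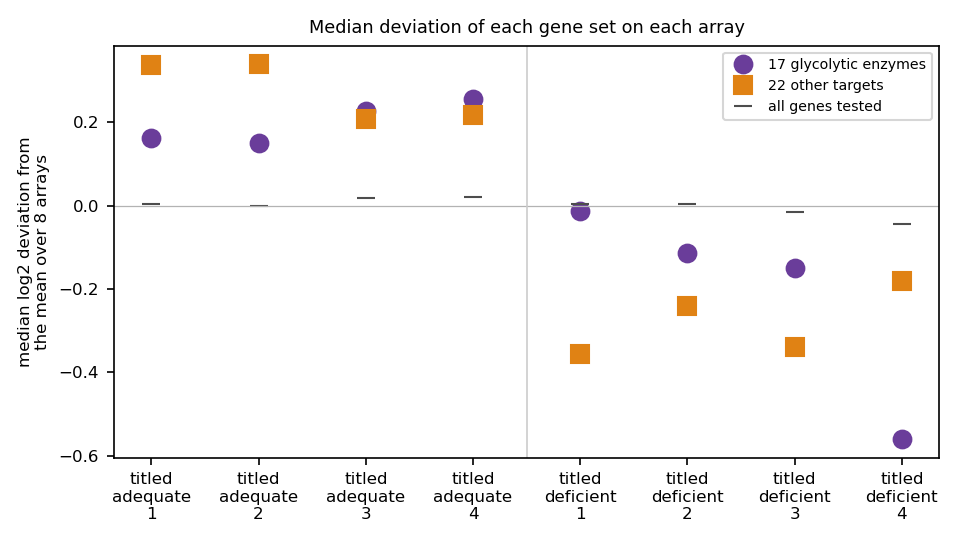
Median log2 deviation from each gene's mean over the 8 arrays, for the 17 glycolytic enzymes (circles), the 22 other targets (squares) and all genes tested (dashes), on each array. The enzymes reach -0.56 on titled deficient 4, where the other targets are at -0.18.

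Titled deficient 4 was the lowest of the 8 arrays for 16 of the 17 glycolytic enzymes and for 6 of the 22 other targets, against 27.3% of all genes tested. Eno2 was the exception among the enzymes. The median of titled deficient 4 minus the mean of titled deficient 1 to 3 was -0.44 over the enzymes, 0.03 over the other targets and -0.04 over all genes. The low control separation of this array stands beside that pattern, and its part in it was not tested. Without this array the same 8 enzymes and the same 12 other targets passed. The median difference of the enzymes became 0.26, and that of the other targets 0.59. For 16 of the 17 enzymes the difference became lower, which follows by arithmetic from their low values on this array.

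**Figure D4:**
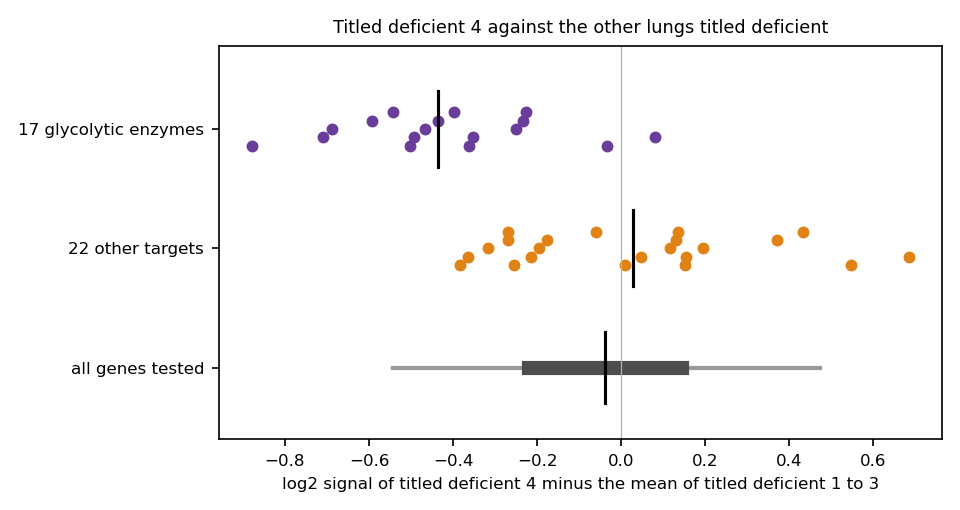
Log2 signal of titled deficient 4 minus the mean of titled deficient 1 to 3, with 1 point for each of the 17 glycolytic enzymes and 22 other targets and a vertical bar at each median. For all genes tested the thick bar covers percentiles 25 to 75 and the thin bar 5 to 95. The enzymes have a median of -0.44 and the other targets of 0.03.

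The titled adequate lungs also differed among themselves, and were compared along the split in Y-linked signal. Other signals differed along the same split. The mean log2 signal of the immediate early genes was 10.00 and 9.98 on titled adequate 1 and 2. It was 11.55 and 11.13 on titled adequate 3 and 4. For macrophage and monocyte markers it was 9.10 and 8.9995 against 9.47 and 9.44. The part of sex or of these signals in the differences below was not tested. The median of titled adequate 3 and 4 minus 1 and 2 was 0.11 over the enzymes, -0.01 over the other targets and 0.02 over all genes. Such a median can hide single genes that moved in opposite directions. For single genes, the mean of titled adequate 3 and 4 minus that of 1 and 2 was 0.78 for Pfkfb3, 0.58 for Hk2 and 0.38 for Ankrd37. It was -0.58 for Mxi1, -0.54 for P4ha2 and -0.41 for Ndrg1. The value of -0.48 for Adm came from titled adequate 2 alone, since titled adequate 1 lay between 3 and 4. With titled adequate 1 and 2 alone against the 4 titled deficient lungs, 4 enzymes and 13 other targets passed. The median difference was then 0.31 for the enzymes and 0.81 for the other targets. With titled adequate 3 and 4 alone, 5 enzymes and 11 other targets passed, with medians of 0.45 and 0.43. Aldoc, Pgam1 and Eno2 passed in both, as did Slc2a1, Slc2a3, Slc16a3, Pfkfb3, Ndrg1, Car12, P4ha1, Ero1a, Bhlhe40 and Adm. Hk2 passed with titled adequate 3 and 4 alone (difference 0.55, adjusted p = 0.02), and with 1 and 2 alone its difference was -0.02.

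Upstream of these targets, 5 of 16 genes of the HIF subunits and oxygen sensing were higher in the titled adequate lungs (31.25%). In the titled deficient lungs 0 were higher. The shares of all genes tested were 13.7% and 8.24%. Egln3, an oxygen-dependent HIF prolyl hydroxylase that is itself a HIF target, differed 10.1-fold (log2 3.34, SE 0.14, adjusted p = 5e-06). Hif3a was 2.60-fold higher (adjusted p = 0.00137), Egln1 1.40-fold (adjusted p = 0.00338), Hif1a 1.34-fold (adjusted p = 0.0327) and Vhl, which marks hydroxylated HIF for degradation, 1.27-fold (adjusted p = 0.0494). Epas1 (difference 0.14), Arnt (0.30) and Egln2 (-0.06) did not pass. The calls of Hif1a and Vhl were lost in 5 and 7 of the 8 fits that left out 1 array. The median difference over the 16 genes was -0.03.

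Among 35 further HIF targets tested, 8 were higher in the titled adequate lungs (22.9%) and 0 were higher in the titled deficient lungs, with a median difference of 0.13. Gys1, the glycogen synthase of muscle and most tissues, was 3.44-fold higher (log2 1.78, SE 0.12, adjusted p = 4.1e-05). Cited2, which competes with HIF for its coactivator, was 2.64-fold higher (adjusted p = 0.000884). Zfp395 was 2.02-fold and Tmem45a 1.41-fold higher, and Plod1, Slc6a8 and Insig2 passed at 1.88-, 1.48- and 1.35-fold. Vegfa, the main growth factor of lung vessels, was 1.44-fold higher (log2 0.53, SE 0.15, adjusted p = 0.0372), a call lost in 6 of the 8 fits that left out 1 array.

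Neighbouring routes of carbohydrate metabolism were read against the 13.7% of all genes tested that were higher in the titled adequate lungs. Of 20 genes of glycogen and gluconeogenesis tested, 4 were higher in the titled adequate lungs (20%): Gys1, the glycogen phosphorylase Pygl (1.89-fold), the lysosomal glucosidase Gaa (1.75-fold) and the glycogen-targeting subunit Ppp1r3b (1.52-fold). Of 23 other glycolytic isoenzymes and side steps, 3 passed (13.04%; Galm, Adpgk and Slc2a10), at 1.35- to 1.46-fold. In the pentose phosphate pathway 1 of 8 passed (12.5%; H6pd, 1.35-fold), and in the citric acid cycle 1 of 15 (6.67%; Ogdh, 1.27-fold). Of 13 genes that govern the entry of pyruvate into mitochondria, Pdk2 was 1.59-fold higher in the titled adequate lungs and Pdk4 1.53-fold higher in the titled deficient lungs (log2 -0.62, SE 0.16, adjusted p = 0.0252). No other gene of these lists passed as higher in the titled deficient lungs. Among the 23 isoenzymes and side steps, 14 differences were above 0 and 9 below. Among the 13 pyruvate entry genes, 5 were above 0 and 8 below. The calls of Pdk4, Ogdh, Slc2a10, Galm and Adpgk were lost in 6, 7, 6, 5 and 1 of the 8 fits that left out 1 array.

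**Figure D5:**
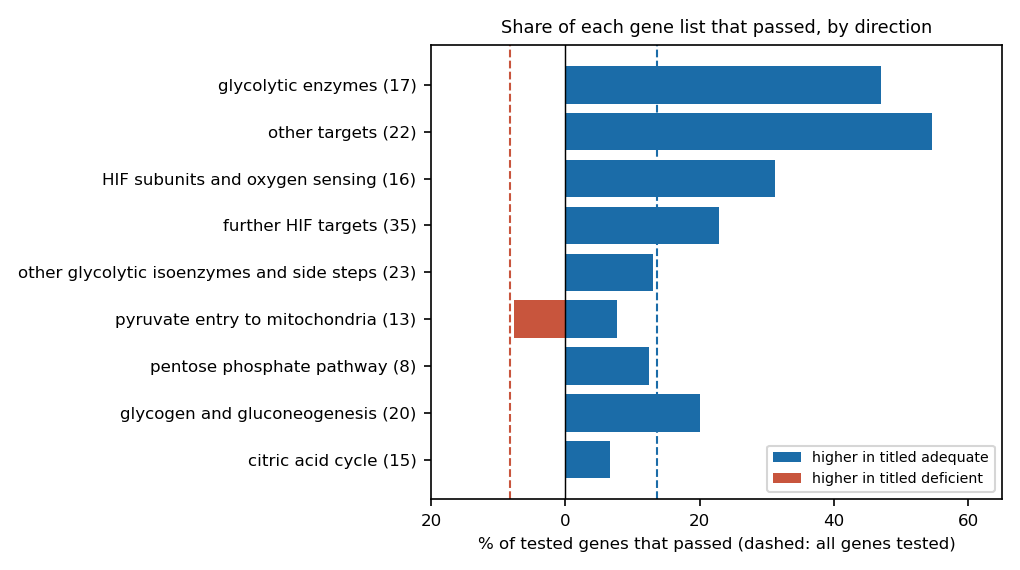
Share of tested genes in each list that passed adjusted p 0.05, with genes higher in the titled adequate lungs to the right and genes higher in the titled deficient lungs to the left. Numbers in brackets are genes tested, and the dashed lines mark all genes tested (13.7% and 8.24%). The 2 member sets reach 47.1% and 54.5%, and the citric acid cycle and pentose phosphate lists hold 1 call each.

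Markers of leukocytes and of rapid stimulation moved with the same groups. The marker counts stand against 13.7% of all genes tested that were higher in the titled adequate lungs and 8.24% that were lower. The mean log2 signal of neutrophil markers was 8.55 to 8.89 on titled adequate and 6.61 to 6.996 on titled deficient arrays, with 11 of 15 tested markers higher and Ltf below the level filter. For macrophage and monocyte markers it was 8.9995 to 9.47 against 8.28 to 8.67, with 7 of 12 higher and 1 lower. All 10 immediate early genes were higher (9.98 to 11.55 against 8.22 to 8.69), as were 7 of 15 lung epithelial markers (14.31 to 14.42 against 13.82 to 14.07). The erythroid ranges overlapped (6.84 to 7.37 against 6.39 to 7.16), and so did those of skeletal muscle (5.78 to 5.91 against 5.87 to 5.97), where Myh4, Myh1, Myh8, Myog and Pgam2 were below the level filter. Ranges also overlapped for heart muscle (6.09 to 6.74 against 6.54 to 6.93), endothelium (12.19 to 12.37 against 11.96 to 12.40) and cell cycle genes (9.22 to 9.73 against 9.49 to 9.91). Single markers of these lists passed all the same. In the titled adequate lungs 1 of 7 erythroid markers was higher. Lower were 1 of 7 skeletal muscle, 1 of 7 heart muscle and 1 of 9 endothelial markers. Of 10 cell cycle genes, 1 was higher and 2 were lower. Klf1, Trim10, Nppa and Nppb were below the level filter. The part of these cells and of pup sex in the glycolytic and HIF target differences was not tested.

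The authors' deposited table lists 2312 transcript clusters from their own comparison, and 20 of the 39 genes are in it, the same 20 that passed here. It holds 8 of the enzymes and 12 of the other targets. Of its rows, 2033 were among the 15465 genes tested here. A positive signed fold went with a higher signal in the titled adequate lungs for 1737 of the 2033. A negative one went with a higher signal in the titled deficient lungs for 296. The authors' comparison used the same 8 arrays, so the shared 20 genes are no independent test. In the authors' deposited table all 20 have a positive signed fold, with Ndrg1 at 4.66, Slc16a3 at 3.01, Pfkfb3 at 2.76, Car12 at 2.44, Tpi1 at 1.55 and Aldoa at 1.33. Under the column names of the authors' deposited table these genes are higher in the vitamin D-deficient columns, which is the opposite of the direction by title.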

How the data were processed

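The authors deposited log2 signals per transcript cluster. Per the submitters' processing notes they came from Affymetrix Expression Console, by RMA at gene level after a signal space transformation (SST). RMA normalizes between arrays, and SST rescales signals, so folds depend on both. The genome build is not given in the sources used here. The authors' deposited table of their comparison gives a signed fold score, and its 8 linear columns were not used.

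Of 70580 rows, 1738 were controls. Of the other 68842, 23446 carry 1 symbol, 505 several and 44891 none. The platform annotation names the rows. Symbols were updated by gene identifier (22077 matched). Mxi1 alone among the members was matched by symbol. A gene took its row with the highest mean. Genes with a mean below percentile 30 (log2 5.32) were left out. The test on the 15465 genes left was limma's (version 3.58.1, R 4.3.3; lmFit, then a trended eBayes), 4 arrays against 4, 2-sided, Benjamini-Hochberg adjusted over all genes, at adjusted p 0.05. The fit was tested on simulated data. The number of arrays limits the precision.

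The members, lists and tests were chosen with earlier results of these data known. All 39 members and 9 HIF pathway genes were named whatever their values, and from each other list up to 4 genes that passed with the smallest p. Alternatives covered filters, rows, normalization, the eBayes variants, array weights, a replicate block and omitted arrays.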

Additional observations from a re-analysis of the deposited data

Results flagged for a closer look

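Each group of 4 arrays was examined for each of the 39 genes (78 groups), and a sample was listed where its gap to the nearest other was an unusually large share of the group's range. Chance gives this in about 1 in 20 groups, and 7 were listed. Tpi1 on titled deficient 4 had a log2 signal of 10.278, where the other lungs of its group had 11.124 to 11.187. Aldoa on the same array was at 8.131, against 8.615 to 8.71. Tpi1 was also low on titled adequate 3, at 11.353 against 11.679 to 11.723. Hk1 on titled adequate 2 was at 9.802, where the other titled adequate lungs were within 9.955 to 9.969. Gapdh on titled adequate 4 was high, at 16.207 against 15.978 to 16.013. Adm on titled adequate 2 was at 8.679, against 7.716 to 7.828. P4ha1 on titled deficient 3 was low, at 12.808 against 13.168 to 13.185.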

How the results depend on the processing

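Of the 8 enzyme calls, 1 (Aldoc) passed under every alternative run and 5 passed with each array left out in turn. Of the 12 calls among the other targets, the corresponding counts were 9 and 10, and Pfkfb4, Adm and Mxi1 were the exceptions. No called member changed direction under any alternative: of 424 values, 383 kept their call and 41 lost it. With 1 array left out, Aldoa, Tpi1, Ldha, Adm and Mxi1 reached adjusted p-values of up to 0.0907, 0.0853, 0.0749, 0.0835 and 0.0503, and outside the members Hif1a, Vhl, Vegfa, Ogdh, Galm, Slc2a10, Adpgk and Pdk4 lost their call at least once.

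Enzymes called numbered 5 with all transcript clusters in the fit, 4 when titled adequate 3 and 4 were left out, 5 when 1 and 2 were, and 5 to 9 with 1 array left out (5 without titled adequate 2, titled adequate 4 or titled deficient 3). Other targets called ranged from 10 to 13 with 1 array left out. All genes called (3390) ranged from 2178 (without titled deficient 2) to 3134. The median enzyme difference ranged from 0.26 to 0.47 with 1 array left out. The median of the other targets ranged from 0.50 to 0.67, and was 0.81 without titled adequate 3 and 4 and 0.43 without 1 and 2. With the percentile 50 filter (log2 6.69) it was 0.835 over the targets left, since Car9, Higd1a, Ankrd37 and Ak4 drop out. Fewer genes enter the fit with the percentile 50 filter, fewer arrays those that leave arrays out, and more features that with all transcript clusters; no other cause was tested.

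The labels do not state whether the replicate numbers of the titles pair the arrays. The correlations of same-numbered deviations were -0.17, 0.04, -0.35 and -0.28, against -0.14 to 0.26 for arrays with different numbers. These values do not settle whether the arrays were paired. With the number as a replicate block, 1758 genes, 4 enzymes, 3 HIF subunit and oxygen-sensing genes, 1 other glycolytic isoenzyme, 0 pentose phosphate and 0 citric acid cycle genes passed.

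For the other lists, the counts that follow are of genes higher in the titled adequate lungs. In some fits the HIF subunit, further HIF target, isoenzyme and pyruvate entry lists each had 1 gene higher in the titled deficient lungs as well. HIF subunits and oxygen sensing had 3 calls with all transcript clusters, 3 without titled adequate 3 and 4, and 3 to 5 with 1 array left out. Further HIF targets had 6 to 9. Other glycolytic isoenzymes had 0 with all clusters, 1 without titled adequate 3 and 4, and 0 to 3. Pyruvate entry had 2 with arrays centred and 1 to 2. The pentose phosphate pathway had 2 with array weights, 0 without titled adequate 3 and 4, and 1 to 2. Glycogen and gluconeogenesis had 7 with cyclic loess, 7 with arrays centred, and 4 to 5. The citric acid cycle had 0 with no filter, 0 with all clusters, 2 with loess, 2 centred, 0 without either pair of titled adequate arrays, and 0 to 1.

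Differences that changed sign belonged to genes that had not passed. Without titled adequate 3 and 4, Hk2 was at -0.0233, Pgk1 at -0.0518, Pdk1 at -0.0292 and Egln2 at 0.0301. Without titled adequate 1 and 2, Kdm3a was at -0.10. Pdk1 was at -0.0074 after quantile normalization and -0.00018 with array weights, Ak4 at -0.0205 with array weights and Egln2 at 0.0105 with arrays centred. With 1 array left out, Pkm ranged from -0.0204 (without titled deficient 4) to 0.249, Pdk1 from -0.0626 to 0.0472, Kdm3a from -0.0548 to 0.0524, Ak4 from -0.0198 to 0.102 and Egln2 from -0.134 to 0.0103. Of all calls, 62.4% were higher in titled adequate, against 71.3% after quantile normalization, 75.8% after loess, 80.2% with arrays centred and 39.1% with all transcript clusters, named or not.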
